A study of Pimephales promelas with 15 samples.

Results

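A set of 55 array probes was examined in livers of male Pimephales promelas, the fathead minnow, a freshwater fish kept for toxicity tests. The probes were chosen by their detection calls, because their transcripts were detected after exposure to lake stormwater and not after exposure to treated wastewater. A probe entered the set when all 4 stormwater arrays and none of the 4 wastewater arrays called its spot well above background. Probes called well above background on all 3 control arrays were then left out, which reduced 68 probes to 55 of the 15208 non-control probes on the array. The reverse pattern, 4 of 4 wastewater arrays and no stormwater array, was shown by 0 probes. Stormwater arrays also detected more of all probes, 69.8% on average against 61.3% on wastewater arrays. The part of this in the asymmetry was not tested. Detection on the stormwater, wastewater and control arrays thus chose the set, so differences among those waters describe it and are given without a test. Streamwater arrays took no part, and streamwater against control is the only comparison given with a test, although its control side was selected.

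Mature male fish from a common tank were kept unfed for 48 h in 1 of 4 waters. Stormwater came out of a lake. Streamwater was surface water sampled downstream of a treatment plant. Wastewater was the irrigation effluent of such a plant. Control fish were held in carbon-filtered, dechlorinated tap water. Each effluent came from a single site, every water was divided over 4 aquaria with 4 fish each, and each one-colour array held liver RNA of 1 fish, from 4 fish per effluent and 3 controls. The labels do not say which fish shared an aquarium, so the spread between arrays is a spread between fish that may include tank mates.

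Fish liver makes most plasma proteins, stores and exports lipid, and carries out much of the chemical breakdown of compounds taken up from water. Detoxifying enzymes of the liver are known to be induced by many organic pollutants, and male fish are known to make egg yolk precursor in the liver when exposed to estrogens. The array files name their probes by contig or sequence number and give neither gene names nor probe sequences. Of these names, 0 matched the reference gene table of the species, so no probe can be assigned to such a function, and the labelled tissue could not be checked against marker genes. Of the 55 probes, 45 carry contig names (81.8%, against 78.0% of all probes) and 10 carry sequence numbers. Because whole liver was used, fewer cells of a type and less RNA per cell cannot be told apart.

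Levels are given as log2 of the spot signal minus log2 of the 75th percentile signal on that array, so a difference of 1 is a change of 2-fold. Each array detected 58.5% to 77.1% of all 15208 probes, and its 75th percentile lay between 1393 and 3981 intensity units. Stormwater replicate 2 and streamwater replicate 4 stood apart from the other livers. Over the tested probes, the correlation between this pair was 0.946. Correlations of the pair with the remaining 13 arrays were 0.723 to 0.843, whereas those among the 13 were 0.875 to 0.962. Median differences, counts of non-overlapping levels and correlations across livers that include them are also given without them.

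Most of the probes were not wholly absent after wastewater, where a weaker call found a signal on at least 1 array. Their raw signals spanned 101 to 3649 intensity units after stormwater, with a median of 282, against 20.6 to 196 units after wastewater, with a median of 48.1. Agilent's software also makes a weaker call, that a spot is positive and differs significantly from background. By that call, 17 of the 55 probes gave a signal on all 4 wastewater arrays, 31 on 1 to 3 of them and 7 on none. Single wastewater arrays so called 27 to 44 of the 55, and 77.1% to 81.5% of all probes. The 7 probes were UF_Ppr_AF_108276, UF_Ppr_AF_110309, UF_Ppr_AF_110489, UF_Ppr_AF_111258, UF_Ppr_AF_115294, UF_Ppr_AF_116363 and UF_Ppr_AF_118481. The same weaker call gave a signal for 46 of the 55 on all 3 control arrays and for 28 on all 4 streamwater arrays. Single control arrays so called 47 to 55 of the 55, and 81.7% to 90.5% of all probes. Single streamwater arrays so called 35 to 54 of the 55, and 78.9% to 82.9% of all probes. The term "detected" below refers to the stricter call, well above background. No spot of the 55 probes was saturated on any array.

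**Figure D1:**
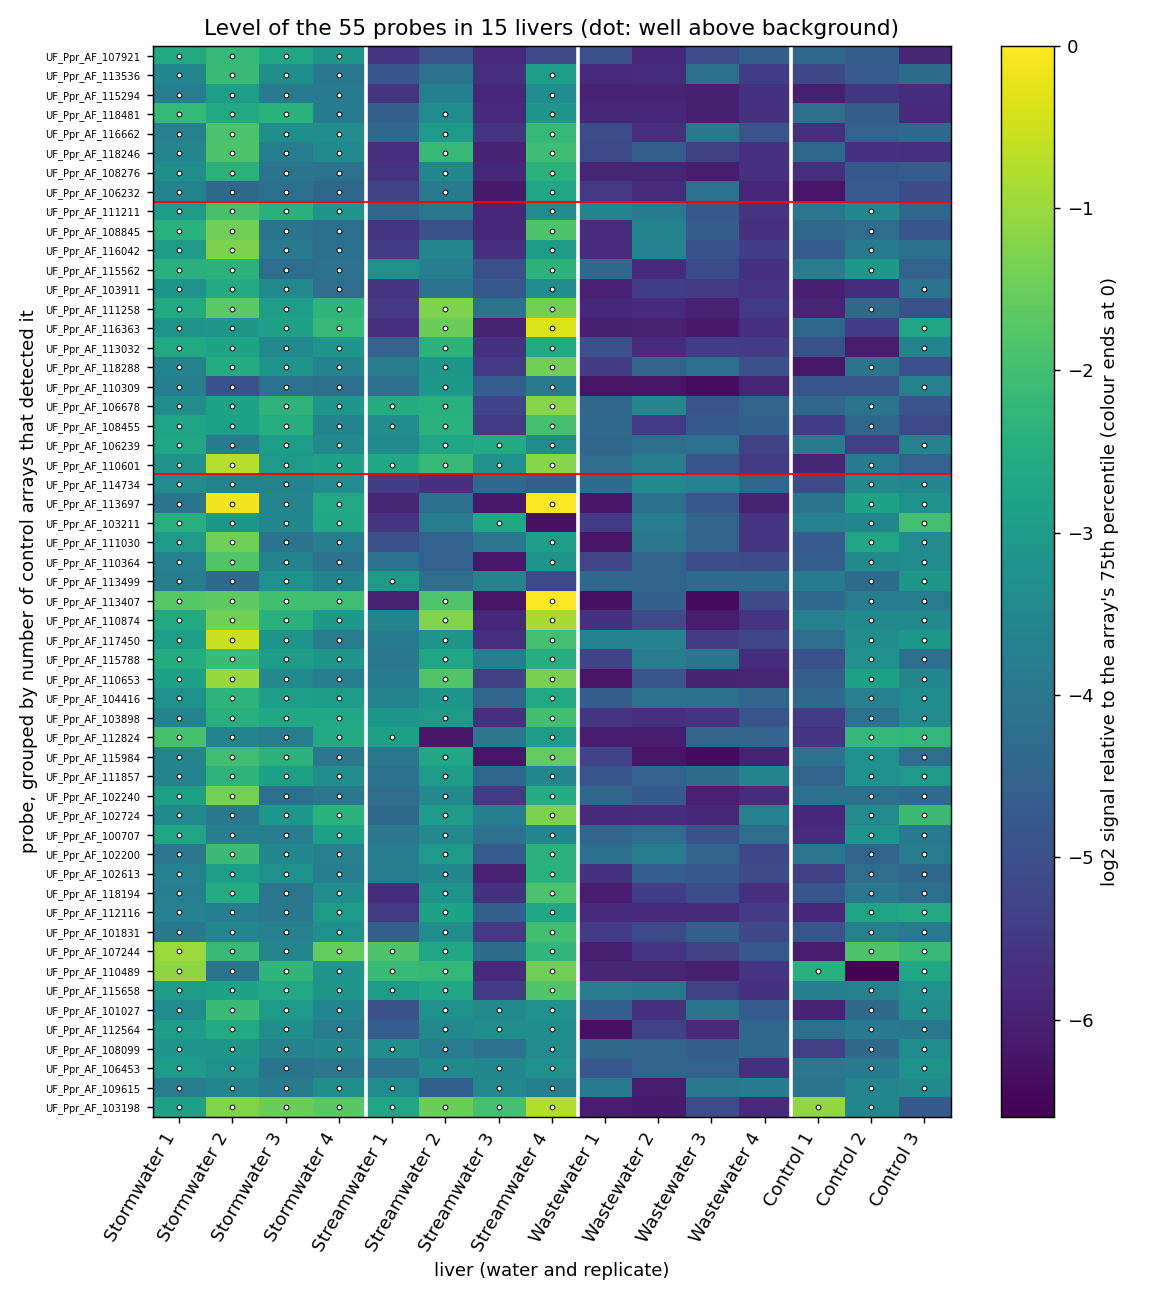
Level of each of the 55 probes (rows) in each of the 15 livers (columns), as log2 signal relative to the array's 75th percentile. White dots mark spots called well above background, and red lines divide probes detected on 0, 1 and 2 control arrays. The colour scale ends at 0, which UF_Ppr_AF_113697 (0.43) and UF_Ppr_AF_113407 (1.84) exceeded in streamwater replicate 4.

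Streamwater livers fell on both sides. Of the 55 probes, 11 were detected in streamwater replicate 1, 39 in replicate 2, 8 in replicate 3 and 51 in replicate 4. Controls also differed among themselves, with 2 probes detected in replicate 1, 41 in replicate 2 and 37 in replicate 3. The choice of the set lowered each of these control counts, because it left out 13 probes detected on all 3 controls. The low count of control replicate 1 is thus partly set by the choice. The probe by probe count gave 2 detected on no streamwater array, 2 on all 4, and 42 on at most 2 of the 4. All but 1 of the 55 probes were detected in at least 1 streamwater or control liver. The exception was UF_Ppr_AF_107921.

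The share of all probes detected differed between livers too. It was 62.7%, 66.1%, 60.2% and 64.5% in streamwater replicates 1 to 4, and 65.8%, 75.2% and 73.4% in control replicates 1 to 3. Within each of these waters, the livers with few of the 55 probes detected also had the lower shares of all probes. The part of general detection in the counts was not tested. Control replicates 2 and 3 lie on slide 2 and control replicate 1 on slide 1, so slide and the difference among controls cannot be told apart. Slide 1 held streamwater replicates 1 and 2 and slide 2 held replicates 3 and 4, so each slide held a streamwater liver with many of the 55 probes detected and a streamwater liver with few.

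**Figure D2:**
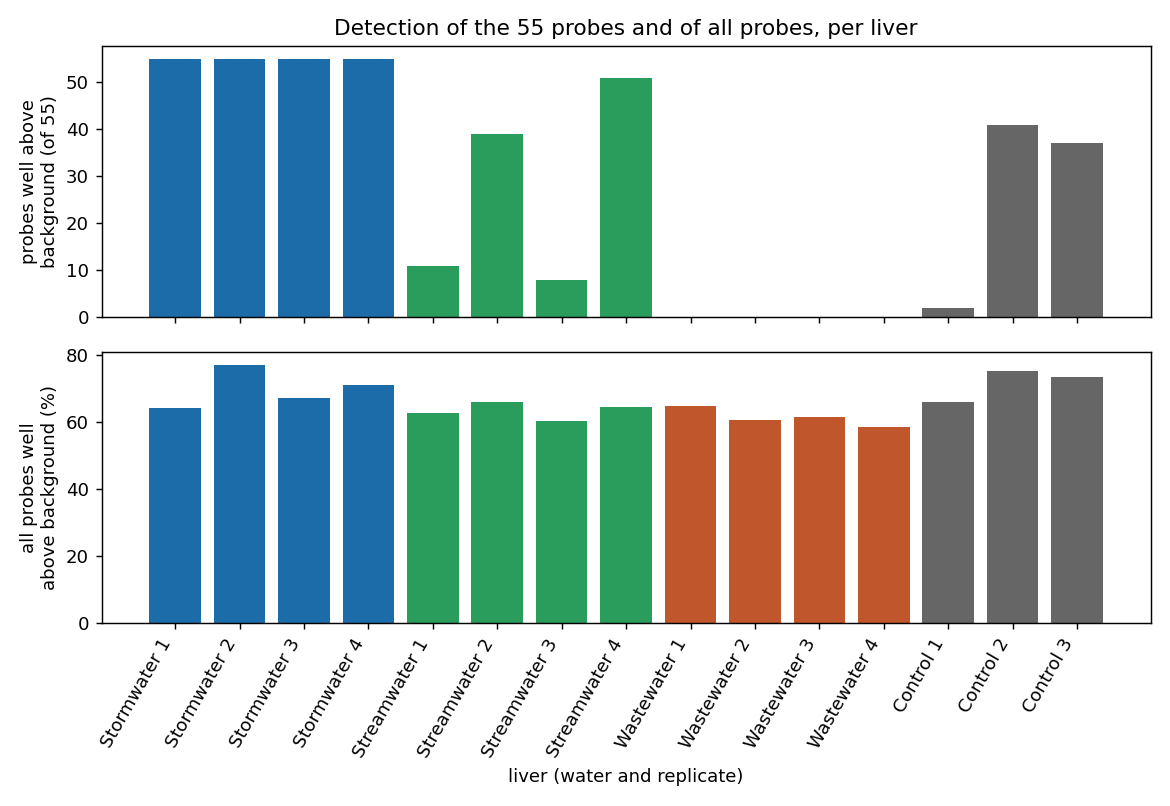
Number of the 55 probes called well above background (upper bars) and share of all 15208 probes so called, in percent (lower bars), for each liver. By the choice of the set the upper bars stand at 55 for stormwater and at 0 for wastewater. Streamwater ran from 8 to 51 and controls from 2 to 41, while the lower bars ran from 58.5% to 77.1%.

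Median levels, taken without the detection call, again set the streamwater livers far apart. Control livers lay within a narrower range of levels, although their counts of detected probes were 2, 41 and 37. The median level of the 55 probes per array was -3.17, -2.45, -3.32 and -3.38 in stormwater replicates 1 to 4. In streamwater replicates 1 to 4 it was -4.18, -3.19, -5.44 and -2.48. In wastewater replicates 1 to 4 it was -5.46, -5.07, -4.96 and -5.43, and in control replicates 1 to 3 it was -4.61, -3.91 and -3.81. Stormwater arrays were thus all high and wastewater arrays all low, as the choice requires, and controls lay between them. Streamwater spanned the whole range, with replicate 3 as low as wastewater and replicate 4 close to the highest stormwater liver. Averaged over arrays, the medians were -3.08 ± 0.43 (SD, n = 4) after stormwater, -3.83 ± 1.28 (n = 4) after streamwater, -5.23 ± 0.25 (n = 4) after wastewater and -4.11 ± 0.43 (n = 3) in controls.

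The median level of all tested probes not detected on every array was set beside that of the 55. Of the 11640 probes tested (detected on at least 3 of 15 arrays), 4470 were not detected on every array, and all 55 are among them. The median level of these 4470 was -3.31, -3.38, -3.80 and -3.84 in streamwater replicates 1 to 4 and thus moved far less than the median of the 55 in the same livers. In control replicates 1 to 3 it was -3.42, -3.35 and -3.35. Detection of the 4470 did differ between these livers. The share detected was 52.6%, 63.7%, 43.8% and 56.7% in streamwater replicates 1 to 4. In control replicates 1 to 3 the share was 61.9%, 88.5% and 85.5%. Within each water it was thus lower in the livers with few of the 55 detected, and its part in the levels of the 55 was not tested. Across the 7 streamwater and control arrays, the 1485 pairs among the 55 probes had a median correlation of 0.54, and 82.7% were positive. Among the 4470 probes the median pair correlation was 0.05, and 53.4% of pairs were positive. Without streamwater replicate 4 the pairs among the 55 had a median of 0.40, with 75.2% positive. These values describe 7 shared arrays, and the control arrays entered the choice of the set.

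**Figure D3:**
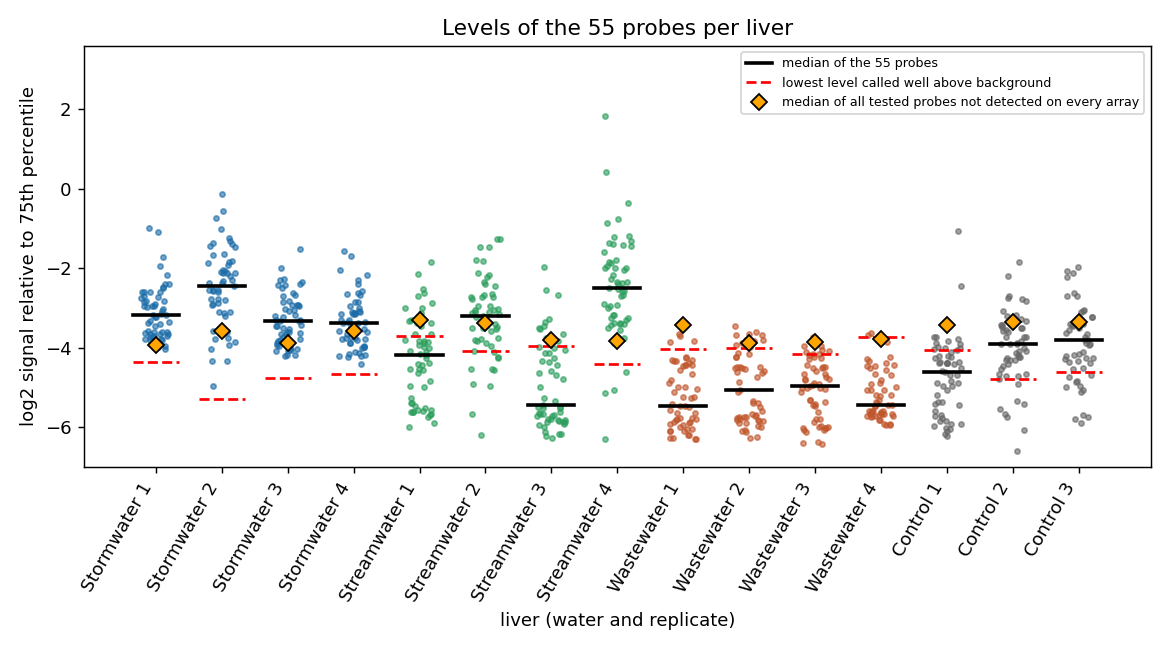
Levels of the 55 probes in each liver (points), with their median (black line), the lowest level called well above background on that array (red dashes) and the median of the 4470 tested probes not detected on every array (orange diamonds). The black lines of the streamwater livers lie between -5.44 and -2.48, while the diamonds of the same livers lie between -3.84 and -3.31.

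The level at which a spot counted as detected differed between arrays. Its lowest value was -4.35, -5.28, -4.76 and -4.65 in stormwater replicates 1 to 4, against -4.02, -4.01, -4.15 and -3.73 in wastewater replicates 1 to 4. Streamwater replicates 1 to 4 had -3.70, -4.07, -3.95 and -4.40, and control replicates 1 to 3 had -4.06, -4.79 and -4.62. The limit of control replicate 1 thus lay above those of the other controls, and its part in the control counts was not tested. On this scale every stormwater array called lower levels detected than any wastewater array. In raw signal the limits overlapped, at 81.6 to 132 intensity units on stormwater arrays and at 99.2 to 151 on wastewater arrays. The part of this difference in the choice of the set was not tested.

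All 4 stormwater levels exceeded all 4 wastewater levels for 44 of the 55 probes, and this held for 3.99% of all 11640 probes tested, from which nothing can be read because this contrast chose the set. For the remaining 11 probes, levels of the 2 waters overlapped. Without stormwater replicate 2, the groups did not overlap for 46 probes, and the share of all probes was not taken for these arrays. Levels of fewer arrays overlap less easily, so this count cannot be set against the one with all arrays. The same holds for such counts below. The smallest difference was that of UF_Ppr_AF_114734, with -3.41, -3.62, -3.63 and -3.38 in stormwater livers and -4.30, -3.44, -3.73 and -4.44 in wastewater livers. Its wastewater replicate 2 lay above 2 stormwater livers that were called detected. UF_Ppr_AF_113499 (-3.75 ± 0.46 after stormwater and -4.36 ± 0.09 after wastewater, SD, n = 4 each) and UF_Ppr_AF_109615 (-3.82, -3.58, -3.91 and -3.30 after stormwater and -3.85, -6.08, -3.95 and -3.86 after wastewater) had the next smallest differences, and both overlapped too.

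Over the 55 probes the median difference of stormwater minus wastewater was 1.98, with a range of 0.47 to 3.95, and the median over all probes tested was -0.09. A probe below the detection call on every wastewater array was treated as having only an upper limit there. The call has no single limit. On wastewater replicates 1 to 4 the highest level not called was -3.45, -3.42, -3.58 and -3.06, above the lowest level called. With each wastewater spot raised to at least the lowest detected level of its array, the median fell to 0.88. On that basis 53 probes were at least 1.16-fold to at least 4.46-fold higher after stormwater, 19 of them at least 2-fold, and for UF_Ppr_AF_106232 and UF_Ppr_AF_110309 no fold can be given. These limits, here and below, hold only for the software's background-subtracted signal, this scaling and the lowest level called on each array. The median difference was smaller under another background correction. A normexp correction of the median spot signals, with an offset of 50, gave 0.054, while the median of all probes moved to -0.38. This offset was close to the median wastewater signal of the 55 probes, 48.1 intensity units. The parts of correction and offset were not tested separately. With that correction the 5 probes of largest difference, described next, differed by 0.66 (UF_Ppr_AF_110874) to 1.48 (UF_Ppr_AF_113407), and UF_Ppr_AF_107921 differed by 0.22. Each was below the probe's limit on the background-subtracted signal, which was 1.33 in log2 units for UF_Ppr_AF_107921.

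The probe with the largest difference was UF_Ppr_AF_103198. Its levels were -2.83, -1.24, -1.51 and -1.70 in stormwater livers and -6.11, -6.12, -5.03 and -5.81 in wastewater livers, at least 4.46-fold higher after stormwater. In streamwater livers it lay at -2.70, -1.47, -1.96 and -0.75, detected in all 4 and at least 4.79-fold above wastewater. Control replicates 1 to 3 were at -1.07, -3.55 and -4.73. Streamwater and stormwater levels overlapped widely and stood above every wastewater level. Control replicate 1 was above every stormwater liver. Control replicates 2 and 3 were below every stormwater and streamwater liver and above every wastewater liver.

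UF_Ppr_AF_113407 varied little after stormwater, at -1.71, -1.64, -1.99 and -2.04, and stood at -6.30, -4.58, -6.41 and -5.07 after wastewater (at least 4.39-fold higher after stormwater). Streamwater livers were at -5.99, -1.82, -6.26 and 1.84, the widest spread of any of the 55 probes (SD 3.85). Replicates 1 and 3 were as low as wastewater, replicate 2 was near stormwater and replicate 4 exceeded every other liver. Controls were at -4.35, -3.82 and -3.81, below every stormwater and above every wastewater liver.

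The probes UF_Ppr_AF_111258 and UF_Ppr_AF_110874 also had replicates 2 and 4 as their highest streamwater livers. UF_Ppr_AF_111258 was at -2.60, -1.66, -2.93 and -2.29 after stormwater, at -5.51, -1.27, -4.05 and -1.40 after streamwater, at -5.86, -5.82, -5.99 and -5.47 after wastewater and at -5.91, -4.31 and -4.95 in controls. Stormwater livers were above all wastewater and control livers, and streamwater replicates 2 and 4 were higher still. UF_Ppr_AF_110874 was at -2.58, -1.40, -2.41 and -3.08 after stormwater, at -3.65, -1.25, -5.84 and -0.86 after streamwater, at -5.64, -5.07, -6.07 and -5.61 after wastewater and at -3.74, -3.43 and -3.45 in controls. Here only streamwater replicate 3 reached the wastewater range.

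UF_Ppr_AF_107244 differed in its control livers. It stood at -0.99, -2.13, -3.60 and -1.56 after stormwater, at -1.84, -2.71, -4.27 and -2.26 after streamwater, at -6.05, -5.59, -5.32 and -4.80 after wastewater, and at -6.09, -1.84 and -2.12 in controls. Control replicate 1 was at the low end of the wastewater livers, and the other controls lay within the stormwater range. UF_Ppr_AF_110489 had another low control: it was at -1.10, -4.03, -2.27 and -3.15 in stormwater livers, against -2.44, -6.59 and -2.69 in control replicates 1 to 3.

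A group of 8 probes was detected on no control array, although the weaker call found a signal of each on 2 or 3 of the 3 controls. Their levels averaged between -4.13 and -2.65 after stormwater and between -5.77 and -4.72 in controls, and they were at least 1.26-fold to at least 3.47-fold higher after stormwater than in controls. Of the 8, 1 was detected on no streamwater array, 2 on 1 array and 5 on 2 arrays. Streamwater replicate 4 detected 7 of them, all but UF_Ppr_AF_107921.

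**Figure D4:**
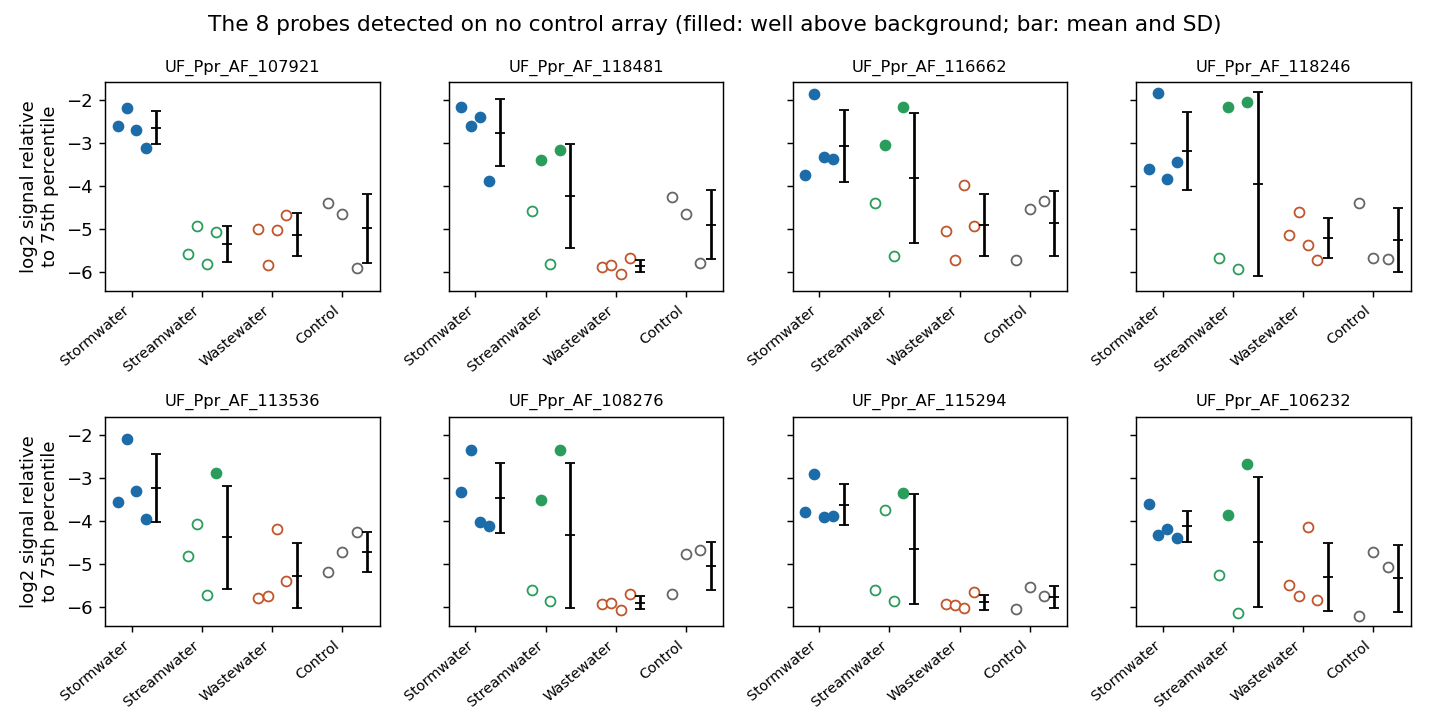
Levels of the 8 probes detected on no control array, in each liver of each water. Filled points were called well above background and open points were not, and bars give the mean and SD over livers (n = 4, and 3 for controls). In UF_Ppr_AF_107921 all 11 livers outside stormwater are open and lie below -4.39 or at it, and in the other 7 probes 1 or 2 streamwater livers are filled.

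UF_Ppr_AF_107921 was the only probe of the set detected in stormwater livers alone. By the weaker call it also gave a signal on all 3 control, 3 of 4 wastewater and 2 of 4 streamwater arrays. It was at -2.59, -2.18, -2.70 and -3.11 after stormwater, at -5.57, -4.91, -5.81 and -5.07 after streamwater, at -4.99, -5.84, -5.02 and -4.66 after wastewater and at -4.39, -4.65 and -5.90 in controls. All 4 stormwater livers were above all other 11 livers. The ratios were at least 2.61-fold over streamwater, at least 2.52-fold over wastewater and at least 3.47-fold over control. The array holds another probe made to the same named contig, whose name ends in "ms". It was detected in 0 livers, and its highest level was -5.50.

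UF_Ppr_AF_118481 was also high after stormwater, at -2.17, -2.59, -2.39 and -3.89, and stood at -5.87, -5.84, -6.03 and -5.67 after wastewater and at -4.24, -4.65 and -5.79 in controls. Streamwater livers were at -4.57, -3.39, -5.80 and -3.16, and replicates 2 and 4 were above the lowest stormwater liver. UF_Ppr_AF_118246 reached -2.16 and -2.04 in streamwater replicates 2 and 4, above 3 of the 4 stormwater livers (-3.60, -1.84, -3.84 and -3.45), and -5.67 and -5.93 in replicates 1 and 3, within or below the wastewater range (-5.12, -4.60, -5.36 and -5.71). UF_Ppr_AF_106232 stood after stormwater at -3.61, -4.32, -4.18 and -4.40, and overlapped with wastewater, where replicate 3 reached -4.15 and the others lay between -5.83 and -5.50.

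A further 14 probes were detected on 1 control array and 33 on 2. The 14 averaged -4.25 to -2.37 after stormwater, -6.20 to -4.36 after wastewater and -5.28 to -3.80 in controls. The 33 averaged -3.75 to -1.82 after stormwater, -5.97 to -3.98 after wastewater and -4.66 to -3.08 in controls. Of the 33, 31 were detected on control replicates 2 and 3, and the choice of the set then excludes detection on control replicate 1. All 4 stormwater livers exceeded all 3 controls for 23 of the 55 probes, and for 3.82% of all probes tested, which again is a description because both waters entered the choice. It held for 24 without stormwater replicate 2, where no share of all probes was taken. The median difference of stormwater minus control was 1.17 over the 55 probes and -0.21 over all probes. Without stormwater replicate 2 it was 0.93 over the 55. It was 2.05 on slide 1, where 1 control was placed, and 0.59 on slide 2, where the other 2 were.

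Streamwater was set against control to ask whether the levels of these transcripts differed between these waters. Leaving out probes detected on all 3 controls favours low control levels, so the difference is tilted upwards by the choice and its direction is no finding. Of the 55 probes, 0 passed limma's test (adjusted p under 0.05 over all 11640 probes), as did 0% of all probes, and the lowest adjusted p was 0.992. At an unadjusted p under 0.05, 5 of the 55 were higher after streamwater, with 1.13% of all probes, and 1 was lower, with 2.9% of all. The 4 waters share 1 estimate of the spread here. The median SD of the 55 was 0.59 after stormwater and 0.52 after wastewater, against 1.32 after streamwater and 0.75 in controls. With only the 2 groups compared, 2 of the 55 were higher and 0 lower, with 106 and 287 of all 11640. Without streamwater replicate 3, 16 were higher and 2 lower, with 366 and 406 of all. The median difference of streamwater minus control was 0.57, and the median over all probes was -0.10. It was positive for 40 of the 55 (30 without streamwater replicate 4) and for 41.8% of all probes tested. Without streamwater replicate 4 the median of the 55 was 0.09, and it was 0.28 without streamwater replicate 2, 0.90 without streamwater replicate 3 and 0.19 without control replicate 1. The median half-width of a 95% confidence interval was 1.49 for these probes, so a change of 2-fold was within the error of most.

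**Figure D5:**
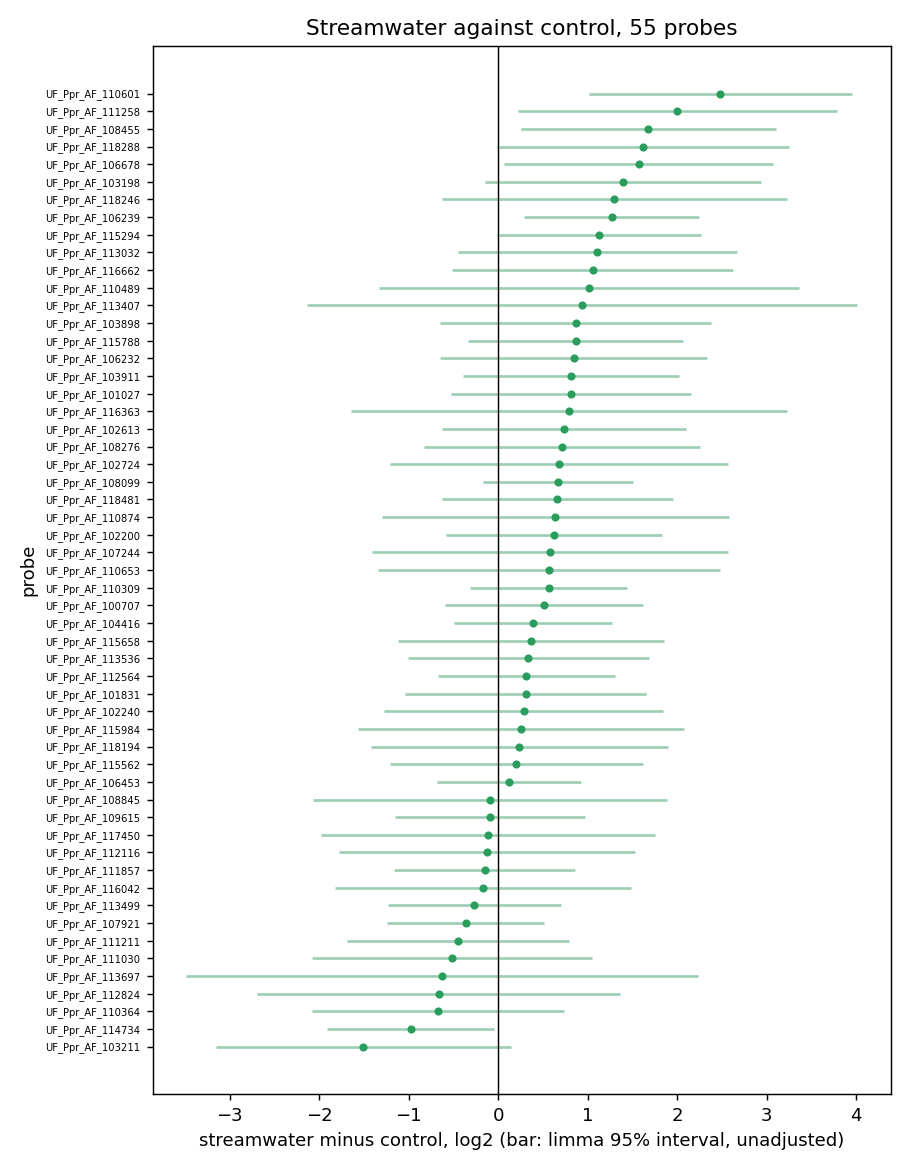
Difference of streamwater minus control for each of the 55 probes in log2 units, with limma's unadjusted 95% confidence interval (bars), ordered by size. Differences ran from -1.51 to 2.48, and no probe passed after adjustment.

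The lowest unadjusted p in this comparison belonged to UF_Ppr_AF_110601, 1 of 2 probes detected on all 4 streamwater arrays. It was at -2.63, -2.13, -3.27 and -1.19 in streamwater livers and at -5.92, -3.91 and -4.54 in controls, a difference of 2.48 (SE 0.68). Every streamwater liver was above every control. The same held for 2 of the 55 probes and for 2.14% of all probes, while the opposite was seen in 0 of 55 and in 3.06% of all. Without streamwater replicate 4 it also held for 2 of the 55, where no share of all probes was taken. After stormwater UF_Ppr_AF_110601 was at -3.23, -0.74, -3.04 and -2.84 and after wastewater at -4.25, -3.81, -4.89 and -5.48.

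UF_Ppr_AF_106239 differed by 1.27 (SE 0.45), at -3.45, -2.72, -2.55 and -3.40 after streamwater and at -3.91, -5.34 and -3.65 in controls. It is also a probe whose streamwater livers were close together (SD 0.46), all above the controls. UF_Ppr_AF_108455 differed by 1.68 (SE 0.66), at -3.37, -2.39, -5.48 and -1.94 against -5.40, -4.40 and -5.12, and its streamwater replicate 3 was below every control. UF_Ppr_AF_114734 was the 1 probe lower after streamwater at an unadjusted p under 0.05, at -5.40, -5.66, -4.33 and -4.60 against -5.06, -3.49 and -3.51 in controls, and it was detected in no streamwater liver.

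Set beside wastewater, streamwater livers were higher on average for 53 of the 55 probes and for 50.3% of all probes tested. For the 55 this count was 50 without streamwater replicate 4. The median difference was 1.30 over the 55, where the median over all probes was 0.00. Raising the wastewater spots to the lowest detected levels reduced this to 0.20, the normexp correction gave 0.40, and without streamwater replicate 4 it was 0.83. All 4 streamwater levels exceeded all 4 wastewater levels for 8 of the 55, against 1.48% of all probes. Without streamwater replicate 4 the levels did not overlap for 9 of the 55, where no share of all probes was taken. Wastewater arrays chose the set for being low, so this is a description only. Both exceptions with all livers included, UF_Ppr_AF_107921 and UF_Ppr_AF_114734, were the probes detected in no streamwater liver.

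The size of the set rested on single livers. Requiring the remaining 3 stormwater arrays gave 162 probes without stormwater replicate 1, 113 without replicate 3, 63 without replicate 4 and 57 without replicate 2, the liver that stood apart. Each of these held all 55. Without a wastewater replicate there were 60 to 78 probes. Without control replicate 1, the condition on the controls removed more probes and 24 of the 55 were left, against 54 without control replicate 2 or 3. Leaving out both livers that stood apart, the median difference of stormwater minus wastewater was 1.66, with 55 of 55 positive. Stormwater replicate 2 gave the highest of the 4 stormwater levels for 34 of the 55 probes, and streamwater replicate 4 gave the highest streamwater level for 40. The shares over all probes were not taken, so neither count can be read as particular to the 55.

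Other probes missed the set by a single array or by the condition on controls. With 1 detected wastewater array there were 65 further probes, and with 3 of 4 stormwater arrays there were 175. Of the first kind, UF_Ppr_AF_107161 ranked first by its stormwater mean. It was at -0.84, -3.73, 2.15 and -2.66 after stormwater and at -5.81, -3.52, -0.65 and -5.43 after wastewater, where replicate 3 exceeded 3 of the 4 stormwater livers. UF_Ppr_AF_103382 ranked first among the second kind, at -1.11, -0.43, -3.55 and -4.40 after stormwater and at -4.93, -3.63, -4.63 and -5.42 after wastewater, and the waters overlapped. The 13 probes left out because all 3 controls detected them include UF_Ppr_AF_113172. It was at -0.95, 0.17, 0.15 and -0.59 after stormwater and at -4.27, -6.14, -6.29 and -5.80 after wastewater, with -1.45, 0.13, -6.11 and 1.28 after streamwater and -0.92, -1.73 and -0.77 in controls. Streamwater replicate 3 was again in the wastewater range.

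The tested probes were searched for those whose levels across livers were most like those of 2 of the 55. Over the 15 livers, the probe most like UF_Ppr_AF_113407 was UF_Ppr_AF_103972 (Pearson r = 0.94, and 0.87 without the 2 livers that stood apart), which was detected on every array. It was at 0.68, 1.22, 0.86 and 0.69 after stormwater, at 0.03, 1.37, -0.54 and 2.51 after streamwater, at -0.42, -0.49, -0.60 and -0.58 after wastewater and at 0.19, -0.26 and 0.22 in controls. All stormwater livers were above all wastewater livers and controls, and streamwater replicate 3 lay with wastewater. UF_Ppr_AF_118194 and UF_Ppr_AF_108276, both of the 55, followed at r = 0.93 (0.90 and 0.94 without those livers). For UF_Ppr_AF_103198 the closest were UF_Ppr_AF_102719 (r = 0.84), UF_Ppr_AF_115147 (r = 0.83) and UF_Ppr_AF_109127 (r = 0.80), none of the 55, at 0.80, 0.78 and 0.75 without those livers. These probes were picked as the best of 11640, so such values describe the arrays and carry no test.

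For 12 of the 55 probes the array holds 14 probes with related names. Of these, 6 have the same contig name followed by "ms", and the others name a different contig of the same series. None of the 14 met the stormwater and wastewater conditions, which only 68 of all 15208 probes met. The 6 "ms" probes were detected on at most 1 stormwater array each. The labels do not say what "ms" stands for, and such probes were dimmer in general, with a median difference ("ms" minus partner) of -4.86 where the partner was detected on every array. On the array itself, 38 of the 55 spots (69.1%) lay in columns 1 to 41 of 82, where 49.98% of all probes lie, and they were spread over rows 4 to 185 of 192. The part of spot position in the detection calls was not tested.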

How the data were processed

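Per the file headers, the authors' scanner files hold spot intensities from Agilent Feature Extraction (10.1.1.1; version 9.5 per the submitters' processing notes). The processed signal is the software's background-subtracted intensity and is not normalized between arrays. The flags used (well above background, positive and significant, outliers, saturation) and the spot position stand in the same deposited files. The authors also deposited a table of log2 signals, which served as an alternative. How it was normalized is not stated in these sources.

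Log2 of the processed signal minus each array's 75th percentile over the 15208 non-control probes was taken, and outlier spots were set to missing. None of the 55 probes had one. The 11640 probes detected on 3 or more of 15 arrays, including all 55, were fitted with limma 3.58.1 in R 4.3.3 (a mean per water, eBayes, two-sided, 11 residual df), and p-values were adjusted over all of them by Benjamini-Hochberg at 0.05. The number of arrays limits the precision. A ratio to a water in which no array was well above background is given as "at least", after raising each of its spots to at least the lowest level called well above background on that array. Such a limit holds for the processed signal, this scaling and that lowest level, and the normexp background gave smaller differences. The code was tested on simulated data. Replicate numbers did not pair streamwater with control arrays: the correlations of deviations were 0.15, -0.23 and 0.02.

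The set, its rule and the comparisons were chosen with earlier results of these data known. Named probes are, by a fixed rule, the 5 of largest and the 3 of smallest stormwater minus wastewater difference, the 5 of highest stormwater level, those detected in no control and no streamwater liver or in all 4 streamwater livers, the 3 of lowest p for streamwater against control, the first-ranked probes that missed the set by 1 array and the 3 most similar to each of 2 probes. The others (UF_Ppr_AF_110489, UF_Ppr_AF_118481, UF_Ppr_AF_118246, UF_Ppr_AF_106232, UF_Ppr_AF_113697, UF_Ppr_AF_113172, those listed for their flags and those named as exceptions) were chosen after their values were seen. The alternatives tried were a normexp background (offset 50), quantile normalization, the authors' values, scaling on probes detected on all arrays, slide or replicate number as a block, other filters and variance estimates, other detection rules and leaving out arrays. The within-slide values were an alternative chosen after seeing the data.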

Additional observations from a re-analysis of the deposited data

Results flagged for a closer look

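For each of the 12 probes named by the rule, and for the median level of the 55 probes and the share of detected probes, the 4 livers of each effluent were searched for a liver far from the others, 42 groups in all. Chance flags about 1 in 20 such groups, and 2 were found. UF_Ppr_AF_110601 was at -0.74 in stormwater replicate 2, and the other 3 stormwater livers lay between -3.23 and -2.84. UF_Ppr_AF_109615 was at -6.08 in wastewater replicate 2, against -3.95 to -3.85 in the other 3 wastewater livers.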

How the results depend on the processing

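Under all 27 alternatives 0 of the 55 probes passed limma's test of streamwater against control. For the 3 probes of lowest p the streamwater minus control difference was positive in all 81 repeats, with limma's adjusted p between 0.643 and 1.00. These 3 were picked by this same comparison, and the choice of the set tilts its direction, so their sign gives no support. Leaving out 1 liver at a time left the count of passing probes at 0, and gave medians over the 55 probes of 0.09 to 0.90 for streamwater minus control, 0.83 to 1.79 for streamwater minus wastewater, 1.66 to 2.17 for stormwater minus wastewater and 0.81 to 1.25 for stormwater minus control. The set itself ran from 24 to 162 probes, and had 30 probes (3 of them shared) with the positive and significant call in place of the stricter one, and 455 with 3 or more stormwater and at most 1 wastewater array. The normexp background moved the median of stormwater minus wastewater to 0.054, of stormwater minus control to 0.49 and of streamwater minus wastewater to 0.40, with all probes at -0.38, -0.21 and -0.0017. On slide 1 the median of stormwater minus control was 2.05 and on slide 2 it was 0.59. With the replicate number as a block, a pairing that the arrays did not bear out, 0 of the 55 passed and the median of streamwater minus control was 0.36. The choice of the set largely fixed the sign of stormwater minus wastewater, so its repeats describe the processing only and give no support. This difference stayed positive for the 12 probes named by the rule in 200 of 204 repeats. The 4 exceptions, all with the normexp background, were UF_Ppr_AF_114734 (-0.52), UF_Ppr_AF_113499 (-0.69), UF_Ppr_AF_109615 (-0.52) and UF_Ppr_AF_106239 (-0.29). The cause of these changes was not tested. A filter to probes detected on all 15 arrays removes the whole set and gives no value. Signals near background limit each ratio to a water without detection to a bound.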
